A study of Drosophila melanogaster with 4 samples.

Results

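The genes described here are 10 antimicrobial peptide, peptidoglycan recognition and NF-kappaB pathway genes of Drosophila melanogaster, chosen by gene symbol from the array's annotation. They are Mtk, Drs, Drsl5, DptB, Def, BomS2, PGRP-SB1, PGRP-LB, Rel and cact, a list drawn up with earlier results of these data known. Each was represented by a single probe set that named no other gene, so 10 of the 10845 genes on the array entered the description. Transcript levels were measured in total RNA of 4 samples of embryo cell culture, with 1 array per sample. Each sample was the negative fraction of a fluorescence-activated sort, the cells left over once a class of labelled neurons had been taken out. For the Gad1-negative pair, a and b, the neurons removed carried the red fluorescent protein dsRed1, fused directly to a 2.1 kb promoter fragment of glutamic acid decarboxylase 1, and no culture age is given. For the Cha-negative pair, a and b, taken from cultures of 3 to 5 days, the cholinergic neurons removed carried GFP. A sort of this kind takes out only cells in which the reporter is expressed. The labels give no strain and do not say whether a and b came from separate cultures, so any p-value covers only the spread between these 4 samples. The question is what sets the cells remaining after the Gad1 sort apart from those remaining after the cholinergic sort.

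Flies have no antibodies and meet infection in large part with peptides that are secreted in bulk when cell wall fragments of microbes are sensed. Peptidoglycan of most Gram-negative bacteria acts through the Imd pathway, which ends in cleavage of the NF-kappaB factor Relish, the product of Rel. Fungi and many Gram-positive bacteria act through Toll, which releases the NF-kappaB factors Dorsal and Dif from the inhibitor Cactus, the product of cact. The fat body and blood cells (haemocytes) are the best known sources of the peptides, and several epithelia also make them.

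All values are array intensities on a linear scale as deposited, and values of different genes are not compared because each probe set has its own response. A floor of 44.9, below which 20% of the values lay, was applied before log2 was taken. Genes with a mean under an intensity of 132 were not tested, which left 6994 genes. The 4 arrays had a median probe set intensity of 213 and 181 in Gad1-negative a and b, and of 248 and 219 in Cha-negative a and b. The geometric mean of the spike-in controls was 4005 and 1550 in Gad1-negative a and b, against 4441 and 7164 in Cha-negative a and b. The part of this spread in the results was not tested. The 3' to 5' ratio of the GAPDH control, a sign of RNA integrity, was 23.9 and 38.04 in the Gad1-negative samples, against a bound of 144 or more in sample a of the Cha-negative pair and 185 in its sample b. The ratio of the eIF-4a control was 230 and 77.1 in Gad1-negative a and b, against bounds of 321 or more and 935 or more in the Cha-negative pair. That of the actin control overlapped between the groups, at 82.05 and 106 in Gad1-negative a and b, against 59.4 and 124 in Cha-negative a and b. The part of RNA integrity in the results was not tested. Of 10 neuron markers on the array, 7 had a lower mean log2 value in the Gad1-negative samples, so no single marker stands for the list. The neuron marker elav read 67.2 and 909.3 in Gad1-negative a and b, against 165.2 and 335 in Cha-negative a and b. The untested nSyb was higher in Gad1-negative, at 126.7 and 296.1 against 32.4 and 34.3 in the same order, the latter both under the floor. Precision is limited by the number of arrays.

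No member of the immune set passed the test between the fractions, although 9 of the 10 had a higher mean in the Gad1-negative samples. Limma called 0 of 6994 genes at a Benjamini-Hochberg adjusted p under 0.05 (0%), and 0 of the 8 members above the intensity filter. At an unadjusted p under 0.05 it counted 345 genes. Because the members were chosen with earlier results of these data known, their counts beside all genes are only a description. Over all 10 members, 9 had a positive difference, against 41.6% of all 10845 genes. Their median difference was 1.97 on the log2 scale, Gad1-negative minus Cha-negative, against -0.05 for all genes. Both Gad1-negative samples lay above both Cha-negative samples in 8 members, against 12.2% of all genes. With each array centred on its median, 8 members again lay above, against 27.04% of all genes higher and 13.9% lower. Without that centring 19.8% of genes lay lower. With 2 samples a group, the smallest two-sided p of an exact permutation test is 0.333. Among those 345 genes limma counted Mtk, Drs, Drsl5 and PGRP-SB1 as higher, 4 of 8 members above the filter, against 2.09% of genes tested that were counted as higher. Drsl5 cleared the filter of log2 7.05 only through its Gad1-negative values, since its Cha-negative mean was 7.01, and the count over the 8 is a description. With no filter, 0 of 10 members had an unadjusted p under 0.05. Without Cha-negative b the differences of Mtk, Drs, Drsl5 and PGRP-SB1 fell to 1.36, 2.12, 1.75 and 1.28. Without Cha-negative a they rose to 5.89, 3.57, 4.79 and 3.00. That of Drs fell to 1.24 without Gad1-negative a and rose to 4.45 without Gad1-negative b.

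The samples did not split evenly. Cha-negative b was the lowest of the 4 samples in 8 of the 10 members, against 14.8% of all genes. In Rel and PGRP-LB it lay within 1.04-fold of the next sample, so in these 2 the order carries little. The members fell into a few patterns, set by which single sample stood away from the rest.

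**Figure D1:**
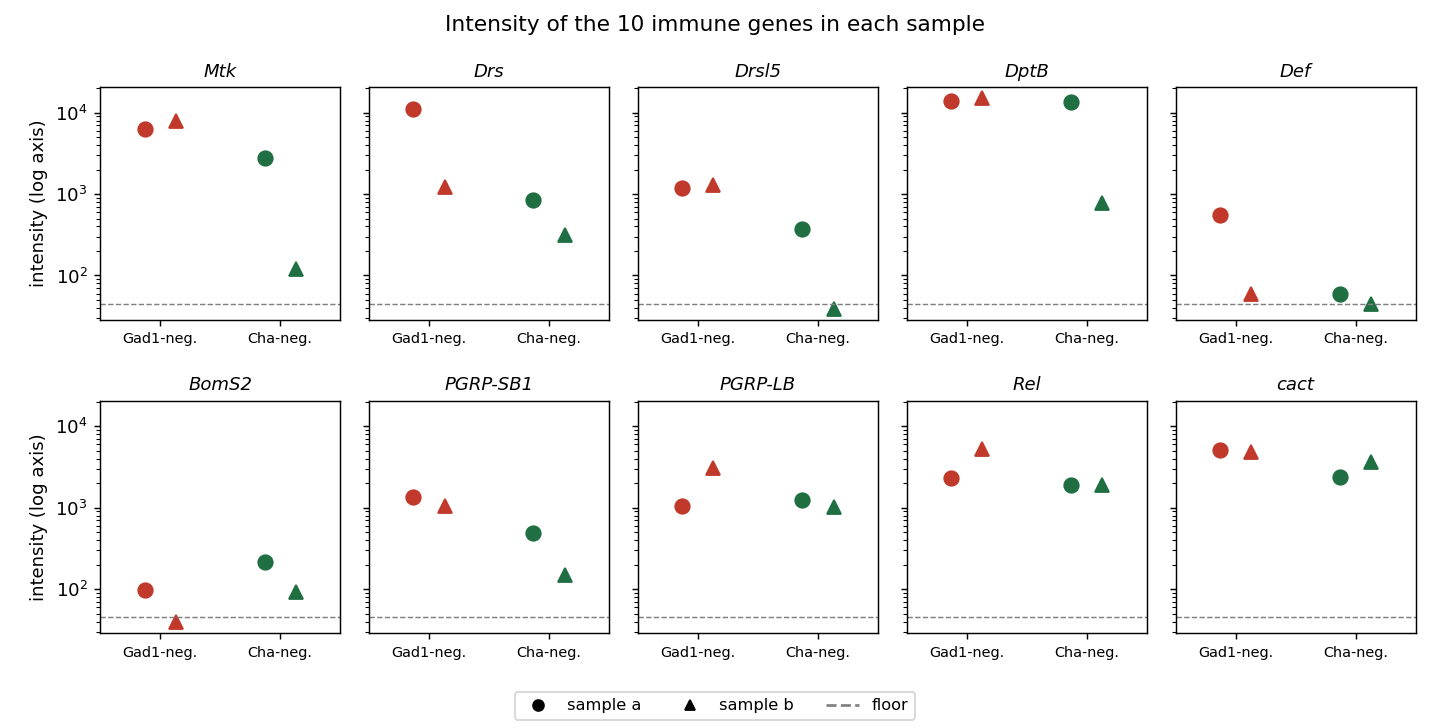
Intensity (log axis) of the 10 immune genes in Gad1-negative samples (red, left) and Cha-negative samples (green, right). Circles are samples a, triangles samples b, and the dashed line is the floor of 44.9. Cha-negative b lies far under the other 3 samples in Mtk, Drsl5 and DptB, and Gad1-negative a far over the other 3 in Drs and Def.

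In 3 of the 6 peptide genes the values were high in both Gad1-negative samples and in Cha-negative a, and low in Cha-negative b. Mtk encodes Metchnikowin, a peptide active against fungi and some bacteria. It read 6356.3 and 7887.9 in Gad1-negative a and b, against 2756.7 and 119.7 in Cha-negative a and b. The Gad1-negative samples were within 1.24-fold of each other, and the Cha-negative samples were 23.03-fold apart. The difference was 3.62 ± 1.27 (SE, n = 2 each), and its 95% interval ran from 0.69 to 6.56 (limma adjusted p = 0.925). Without Cha-negative b it was 1.36, and without Cha-negative a it was 5.89.

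DptB encodes Diptericin B, a glycine-rich peptide of the Imd response to Gram-negative bacteria. It read 14072.3 and 15178.6 in Gad1-negative a and b, against 13513 and 770 in Cha-negative a and b. All samples but Cha-negative b lay within 1.12-fold of each other, and Cha-negative b lay 17.5-fold under Cha-negative a. The groups did not overlap, but by a narrow step between Gad1-negative a and Cha-negative a of 1.04-fold. The difference of 2.18 ± 1.20 had an interval from -0.60 to 4.96 (limma adjusted p = 0.925), and it was 0.11 without Cha-negative b and 4.25 without Cha-negative a.

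Drsl5 encodes a relative of the antifungal peptide Drosomycin. It read 1190.6 and 1302.9 in Gad1-negative a and b, against 370.9 in Cha-negative a and 38.6, under the floor, in Cha-negative b. Gad1-negative a and b were 3.21-fold and 3.51-fold over Cha-negative a, and Cha-negative b was lower by at least 8.26-fold than Cha-negative a. The difference, with Cha-negative b set to the floor and so a lower bound, was at least 3.27 ± 0.95 (interval 1.07 to 5.47, limma adjusted p = 0.925). It was 1.75 without Cha-negative b. In Mtk, DptB and Drsl5, Cha-negative b lay more than 5-fold under the next lowest sample, a step found in 0.304% of all genes. The sample, the direction and the 5-fold limit were chosen after the values were seen. Taken for each sample, as the lowest or as the highest, such a step was found in 0.148% to 0.987% of all genes.

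Drs and Def stood high in Gad1-negative a alone. Drs encodes Drosomycin, the antifungal peptide widely used as a readout of Toll in the fat body. It read 11250.1 and 1215.8 in Gad1-negative a and b, against 853.1 and 311.9 in Cha-negative a and b. The order of the groups was kept, with Gad1-negative b 1.43-fold over Cha-negative a. The difference of 2.84 ± 1.03 had an interval from 0.45 to 5.24 (limma adjusted p = 0.925), and without Gad1-negative a it was 1.24. Def encodes Defensin, a peptide active mainly against Gram-positive bacteria, and read 547 and 59.7 in Gad1-negative a and b, against 59.5 and 45 in Cha-negative a and b. All samples but Gad1-negative a were close to the floor, and Gad1-negative b and Cha-negative a were nearly equal. Def lay under the intensity filter and was untested. Its difference of 1.80 was 0.21 without Gad1-negative a. A step of more than 5-fold from Gad1-negative a to the next highest sample occurred in Drs, at 9.25-fold, and Def, at 9.16-fold, 2 of 10 members, against 0.212% of all genes. Here too the sample, the direction and the limit were chosen after the values were seen, so the share only describes the pattern.

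BomS2 was the only member with a negative difference. It encodes a short Bomanin, one of a family of small Toll-dependent peptides secreted into the blood. It read 97.6 and 39.7 in Gad1-negative a and b, against 218.4 and 93.4 in Cha-negative a and b. The groups overlapped, since Gad1-negative a lay just over Cha-negative b, and Gad1-negative b lay under the floor. The difference of -1.11 was taken with Gad1-negative b set to the floor, so that the fall is a lower bound, and it was -0.69 with the floor at the 30th percentile. BomS2 lay under the filter and was untested. With 1 sample left out the difference ran from -1.72 to -0.50.

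The peptidoglycan recognition proteins among the members are both enzymes that cut peptidoglycan. PGRP-SB1 is a secreted amidase induced by the Imd pathway. It read 1372.5 and 1044.6 in Gad1-negative a and b, against 492.1 and 149.2 in Cha-negative a and b. Gad1-negative b lay 2.12-fold over Cha-negative a, so the groups did not overlap, and Cha-negative b was again the lowest, 3.30-fold under Cha-negative a. The difference of 2.14 ± 0.69 (SE, n = 2 each) had an interval from 0.55 to 3.74 (limma adjusted p = 0.925). It stayed between 1.28 (without Cha-negative b) and 3.00 (without Cha-negative a).

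PGRP-LB degrades peptidoglycan and so dampens Imd signalling. It read 1051.5 and 3071.8 in Gad1-negative a and b, against 1254.2 and 1014.3 in Cha-negative a and b. Gad1-negative b alone was high, 2.45-fold over the next sample, and the groups overlapped. The difference of 0.67 ± 0.65 had an interval from -0.83 to 2.18 (limma adjusted p = 0.929), and without Gad1-negative b it turned to -0.10.

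The NF-kappaB pathway members, Rel of the Imd pathway and cact of the Toll pathway, both had differences under 1 on the log2 scale. Rel, which encodes Relish, read 2299.6 and 5219.5 in Gad1-negative a and b, against 1927.8 and 1877.8 in Cha-negative a and b. The Cha-negative samples were within 1.03-fold, and Gad1-negative b was 2.27-fold over Gad1-negative a. The difference of 0.86 ± 0.60 had an interval from -0.53 to 2.26 (limma adjusted p = 0.925), and it was 0.27 without Gad1-negative b. In Cha-negative a and b, Rel was nearly level while Mtk and DptB differed 23.03-fold and 17.5-fold. Cleavage of Relish was not measured, and the part of Relish in the peptide values was not tested.

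The inhibitor gene cact, itself a known target of Toll signalling, read 5066.2 and 4840.8 in Gad1-negative a and b, against 2417.9 and 3600.1 in Cha-negative a and b. The Gad1-negative samples were within 1.05-fold and the Cha-negative samples within 1.49-fold, with no overlap. The difference of 0.75 ± 0.56 had an interval from -0.54 to 2.04 (limma adjusted p = 0.925). It stayed positive with any 1 sample left out, from 0.46 to 1.03. Unlike most members, cact had its lowest value in Cha-negative a.

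**Figure D2:**
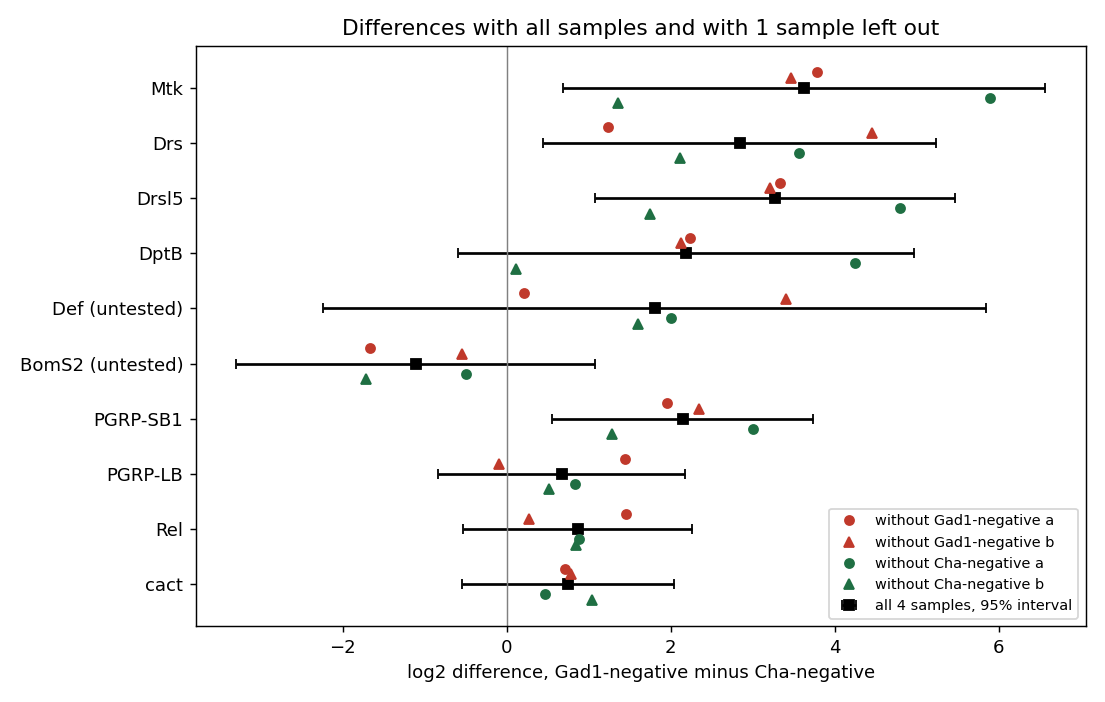
Log2 difference, Gad1-negative minus Cha-negative, of each member. Black squares with bars are the fit on all 4 samples with its 95% interval, and coloured symbols are the difference with the named sample left out. DptB comes to 0.11 without Cha-negative b, Def to 0.21 without Gad1-negative a, and PGRP-LB to -0.10 without Gad1-negative b.

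The gap between samples of one group was larger than the difference between groups in 7 of 10 members. The share over all genes was not counted, but a difference over both gaps needs groups that do not overlap. Such groups made up 12.2% of all genes (higher) and 19.8% (lower), so large gaps of this kind were common among all genes too. Among the members, the difference exceeded the larger of the 2 replicate gaps only in cact, PGRP-SB1 and Drsl5, by 1.30, 1.25 and 1.07 times on the log2 scale. In Mtk it was 0.80 of that gap and in DptB 0.53. Between Cha-negative a and b, 6 of 10 members differed by over 2-fold, against 30.7% of all genes. Between Gad1-negative a and b, 5 of 10 did, against 32.3%. The Cha-negative gap of Mtk was exceeded by 0.114% of the genes tested and that of DptB by 0.229%. Their Gad1-negative gaps were exceeded by 76.8% and 91.8%. Drs was the reverse, with a Gad1-negative gap of 9.25-fold that 1.86% of the genes tested exceeded and a Cha-negative gap of 2.74-fold that 16.6% exceeded.

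**Figure D3:**
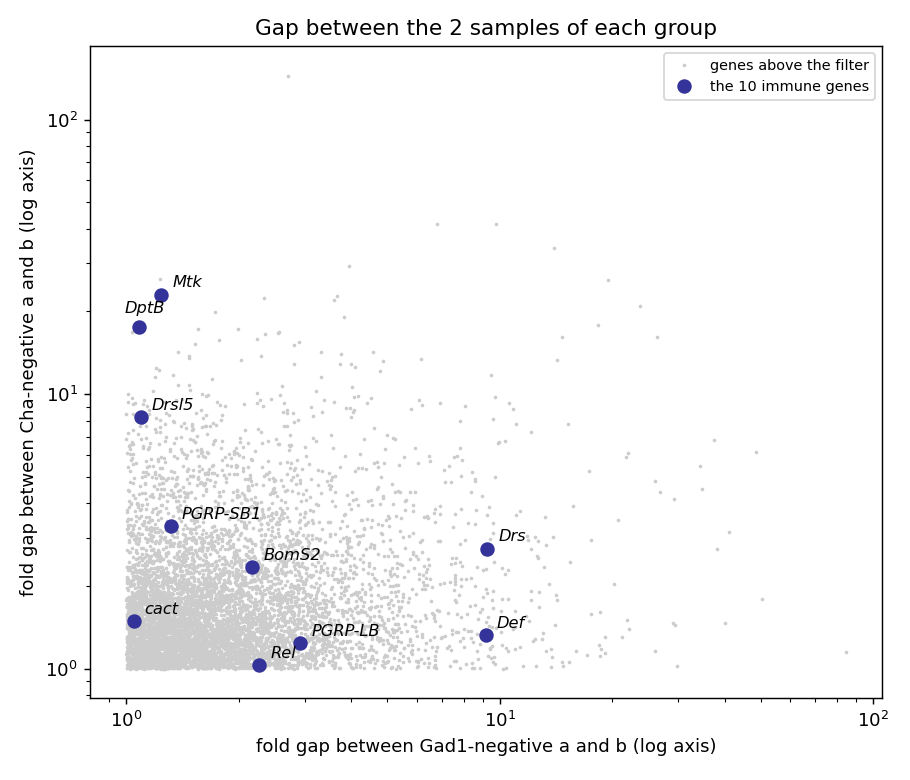
Fold gap between Gad1-negative a and b (horizontal, log axis) and between Cha-negative a and b (vertical, log axis) for the 10 immune genes (blue) and all genes above the filter (grey). Mtk, DptB and Drsl5 lie at the left edge with Cha-negative gaps of 23.03, 17.5 and 8.26-fold, and Drs and Def lie to the right with Gad1-negative gaps of 9.25 and 9.16-fold.

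Low values in Cha-negative b also occurred outside the 10 genes, in some lists and not in others. Cha-negative b was the lowest sample in 2 of 8 other Bomanin-related genes, 3 of 7 other PGRP and GNBP genes, 7 of 16 Imd pathway genes and 4 of 18 Toll pathway genes, against the 14.8% of all genes given above. Of 18 further genes listed for peptides other than Bomanins, 5 had a probe set of their own, and Cha-negative b was the lowest sample in 0 of these 5. Their median difference was -0.41, 2 were positive and 3 negative, and 0 of the 4 tested passed. Listericin, an antibacterial peptide gene, read 4780.9 and 10559.2 in Gad1-negative a and b, against 1152.1 and 1671.4 in Cha-negative a and b, a difference of 2.36 ± 0.62. AttD, a gene of the attacin family, read 8841.5 and 4277.8 against 1478.3 and 4853.6 in the same order, so the groups overlapped. Anp, which encodes the male reproductive tract peptide andropin, differed by -1.10. CecB, a cecropin, read 3942.1 and 409.5 in Gad1-negative a and b, against 1075.6 and 2638.2 in Cha-negative a and b. CecB is an inducible peptide gene like DptB, yet in Cha-negative b it read above Cha-negative a.

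The paralogues read beside PGRP-SB1 and Drs, PGRP-SB2 and Drsl6, were under the intensity filter and untested. In the gene order of the Release 6 RefSeq assembly, 11 genes lie between Drsl5 and Drs, and PGRP-SB2 is the gene next to PGRP-SB1. PGRP-SB2 read 45.7 and 76.9 in Gad1-negative a and b, against 291.4 and 27.3 in Cha-negative a and b. In PGRP-SB2 the value of Cha-negative b was under the floor and that of Gad1-negative a just over it, so their order carries little. Cha-negative a was its highest sample, unlike in PGRP-SB1. Drsl6, beside Drs with 1 gene between, read 98.5 and 24.8 against 183.6 and 57.4 in the same order, a pattern nearer to BomS2. Its value in Gad1-negative b was under the floor. The 15 further Bomanin-related genes were listed without regard to place in the genome and include genes not named Bomanin, such as IM33. Of them 8 were on the array, with 4 positive, 3 negative and 1 at the floor in all samples, and 0 of 4 tested passed. BomS6 read 766 and 736.8 in Gad1-negative a and b, against 1342.9 and 159 in Cha-negative a and b. BomT2 read 442.2 and 343.8 against 422.5 and 97.7 in the same order, with a difference of 0.94. Both were lowest in Cha-negative b, as Mtk and DptB were, while Cha-negative a lay among or above the Gad1-negative samples. BomS5 differed by -0.82. IM33, a gene for an immune-induced blood peptide, read 14769.8 and 15320.9 in Gad1-negative a and b, against 16760.6 and 34217 in Cha-negative a and b. There Cha-negative b was the highest sample, unlike in BomS6 and BomT2. Among 7 other PGRP and GNBP genes, again listed without regard to place in the genome, 5 were positive and 0 of 4 tested passed. PGRP-LE, an intracellular sensor of the Imd pathway, read 1312.4 and 1468.9 against 832.3 and 741.4 in the same order, without overlap. PGRP-LA differed by -0.83, and PGRP-SC2, another amidase, by 0.38.

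Genes that carry the Imd signal went both ways, and none passed. Of 16 Imd pathway genes on the array, 10 were positive and 6 negative, with a median of 0.15, and limma called 0 of the 15 tested. The adaptor imd was untested at 96.6 and 136.6 in Gad1-negative a and b, against 131.1 and 174.9 in Cha-negative a and b. Dredd, the caspase that cleaves Relish, differed by -0.39, and the IKK subunits key and IKKbeta differed by 0.60 and -0.33. pirk, a negative regulator of the pathway, differed by 0.06. The ubiquitin-conjugating enzyme variant Uev1A differed by 0.87. akirin, a nuclear cofactor of Relish, read 1436.7 and 2617.2 in Gad1-negative a and b, against 880.5 and 847.2 in Cha-negative a and b. Like Rel, it was level in the Cha-negative samples and highest in Gad1-negative b, and its difference was 1.17 ± 0.55.

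Of 18 Toll pathway genes on the array, 10 were positive and 8 negative, with a median of 0.12, and 0 of the 17 tested passed. The ligand gene spz read 2085.5 and 1263.9 in Gad1-negative a and b, against 3307.6 and 2277.5 in Cha-negative a and b, a difference of -0.76 ± 0.56. The receptor gene Tl differed by 0.19, the kinase gene pll by -0.18, and the NF-kappaB genes dl and Dif by -0.15 and 0.05. In dl, sample a read higher than sample b in both groups, at 3568.3 and 1785.4 in Gad1-negative, against 4466.7 and 1768 in Cha-negative. nec, the serpin that holds back the Toll cascade in the blood, differed by 0.71, Pli, a Pellino homologue, by 1.56, and the protease snk by -0.80.

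**Figure D4:**
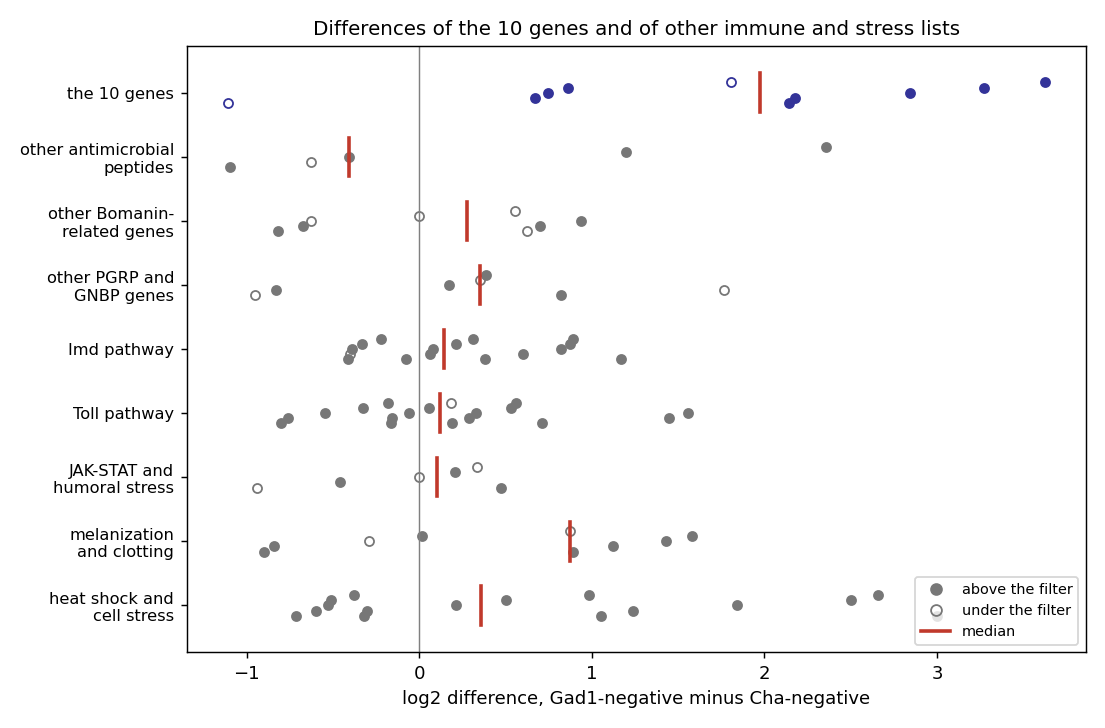
Log2 difference, Gad1-negative minus Cha-negative, of the 10 genes (blue) and of genes of 8 other immune and stress lists (grey). Filled points lie above the intensity filter, open points under it, and the red line is the list's median, 1.97 for the 10 genes, 0.15 for the Imd pathway and 0.12 for the Toll pathway.

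Genes of other humoral defences and of cell stress also gave no call. Of 6 JAK-STAT and humoral stress genes on the array, 3 were positive and 2 negative, and 0 of 3 tested passed, among them dome at 0.21, Stat92E at -0.46 and Tep4 at 0.48. Of 9 melanization and clotting genes, 6 were positive and 0 of 7 tested passed. fon, a clotting protein gene, read 4167.4 and 3841.9 in Gad1-negative a and b, against 1472.3 and 1503 in Cha-negative a and b. This was a tight separation in both groups, with a difference of 1.43 ± 0.52. PPO2 and Sp7, which act in melanization, differed by 1.12 and 0.89, while PPO1 and PPO3 differed by -0.84 and -0.90. Among 16 genes of heat shock and other stress, 9 were positive and 7 negative, with 0 passing. Hsp68, an inducible chaperone gene, differed by 3.00 and Hsp26 by 2.50, with their lowest values in Cha-negative a and not in Cha-negative b. MtnA, a metallothionein gene, read 21981.5 and 1868.2 in Gad1-negative a and b, against 815.4 and 1268.9 in Cha-negative a and b, high in Gad1-negative a alone as Drs and Def were.

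Marker genes of the tissues known to make these peptides were measured beside them. In bulk RNA, fewer cells of a type and less RNA per cell cannot be told apart. A summed intensity adds probe sets of unlike response, so its brightest probe sets weigh most, and it is read only beside the counts of markers. Of 16 haemocyte markers on the array, 9 were positive and 7 negative, with a median of 0.15 and 0 of 15 tested passing. Their summed intensity was 20632 and 23290 in Gad1-negative a and b, against 12290 and 11832 in Cha-negative a and b. The iron storage gene Fer1HCH was a large part of each sum, at 10205.4 and 17958.9 against 4856.9 and 7023.7. Of the defining haemocyte markers, Hml read 334.4 and 141.9 against 622.6 and 246.2 in the same order. Pxn read 355.8 and 16.7 against 80.9 and 463.7, under the floor in Gad1-negative b and highest in Cha-negative b. The untested eater was under the floor in Cha-negative b. Positive differences were those of srp, crq and NimC1, at 0.95, 0.19 and 0.12, among others. Cha-negative b was the lowest sample in 5 of the 16, among them vkg, which differed by 1.72. PPO2, at 1.12, was lowest in Cha-negative a. The largest negative differences were those of PPO3, Hml and PPO1, at -0.90, -0.85 and -0.84. Of 6 fat body markers on the array 3 were positive and 3 negative, with 0 of 4 tested passing. Their sum was 6251 and 7704 in Gad1-negative a and b, against 8312 and 4721 in Cha-negative a and b. Fbp2 was under the floor in all samples but Cha-negative a, and Lsp2 read 207.8 and 137.8 against 376.6 and 75.1. The lipoprotein gene apolpp differed by -0.35, Lpin by 0.19 and FASN1 by 1.08. The part of either cell type in the peptide values was not tested.

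Markers of other cell types present in such cultures differed in their own directions. Of 6 muscle markers 4 were positive, and the sum was 5323 and 9223 in Gad1-negative a and b, against 3580 and 2246 in Cha-negative a and b. Prm differed by 3.15, Mlc2 by 1.87 and sns by -1.18, and 0 of 5 tested passed. Of 8 gut markers 7 were negative and 1 positive, against 41.6% positive over all genes. Jon65Aiv was at -1.95, Mal-A1 at -1.21 and Mur18B at -1.21, and 0 of 5 passed. Among the 7, alphaTry was at -0.01 with all samples but Cha-negative b under the floor, so its sign carries little. LysP was under the floor in both Gad1-negative samples. The gut sum was 10806 and 4874 in Gad1-negative a and b, against 7562 and 12004 in Cha-negative a and b. The lysozyme gene LysX, the 1 gut marker with a positive difference, at 0.81, supplied 5812.2 and 2682.8 against 1046.9 and 4879.3 in the same order. LysB, at -0.87, supplied 4150.2 and 1454.7 against 5037 and 4014.2. Of 7 glial markers 3 were positive, with repo, which marks glia, at 473 and 180.1 against 512.6 and 473.1. The glial genes nrv2, wun2 and alrm differed by 1.02, -0.88 and -0.91, with 0 of 7 passing. The glial sum was 5537 and 5070 in Gad1-negative a and b, against 3868 and 8885 in Cha-negative a and b. Of the 10 neuron markers 7 were negative, with Rdl at -2.10, Appl at -1.01 and fne at 0.43, and 0 of 6 passed. The neuron sum was 2829 and 4877 against 3723 and 6206. Cha-negative b was the lowest sample in 0 of the neuron, glial and gut markers and in 3 of the muscle markers.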

How the data were processed

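The authors deposited 1 intensity per probe set and sample, on a linear scale. The 2%-trimmed means of the 4 columns were equal at 500.1, so each array had been scaled to a common level by software not given in the sources used here. The identifiers match a 1-colour Affymetrix design. Of 14010 probe sets, 44 were controls, 12444 named 1 gene, 327 several and 1195 none. Symbols were updated through Entrez identifiers, and the probe set with the highest mean stood for each of 1209 genes with more than 1. Coordinates are left out because the probes' build is not given in the sources used here, and no sequences were used. Values were floored at the 20th percentile and taken to log2. Genes whose mean reached log2 7.05, the 40th percentile over probe sets, were tested in R 4.3.3 with limma 3.58.1 (trended eBayes after lmFit). The tests were two-sided, and eBayes added prior degrees of freedom to the 2 residual ones. Adjustment was by Benjamini-Hochberg, and the threshold was 0.05. Def and BomS2 lay under that filter, and their values come from a fit on all genes. The code was tested on simulated data. Tables were made with pandas 2.3.3 and figures with matplotlib 3.10.9, in Python 3.11.15.

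The members and lists were chosen with earlier results of these data known. Named genes are the members, up to 3 tested genes of each list with the smallest unadjusted p, and direct partners of the members. Nearby paralogues, CecB, BomS6, LysX, LysB, PPO1, PPO3 and defining or other cell type markers are named besides, after their values were seen. PGRP-LC had no probe set of its own. Of the list genes without one, 2 further peptide, 1 Bomanin-related, 3 PGRP and 2 heat shock genes were on the array only in probe sets that name several genes. Alternatives were quantile normalization, median centring, floors at the 10th and 30th percentile, no filter, a stricter filter (60th percentile), averaged probe sets, each probe set on its own, eBayes without trend, the replicate letter as a block, and leaving out each sample.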

Additional observations from a re-analysis of the deposited data

How the results depend on the processing

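Under all 14 alternatives, limma called 0 genes and 0 members at an adjusted p under 0.05. Because each member has 1 probe set, 6 of these alternatives (the filters, averaged or separate probe sets, eBayes without trend and the block) leave its difference as it is. Under the other 8, 65 member differences moved and 64 of them kept their sign; that of PGRP-LB turned to -0.10 without Gad1-negative b and was 1.45 without Gad1-negative a. Every member moved by over 1.5 times when at least 1 of the samples was left out. With 2 samples a group, the size of such a move follows directly from the gap between that group's samples. The cause of those gaps was not tested. The smallest adjusted p of any member was 0.0982, for Mtk without Cha-negative a, in a fit that assumes the lone sample varies like the other group. Counts at an unadjusted p under 0.05 were 345 genes and 4 members as reported, 718 and 0 with no filter, and 213 and 4 with the stricter filter. With the replicate letter as a block (replicate block) they were 602 and 5, DptB being added, with 0 past adjustment. The a and b samples share only a letter, and the a minus b differences of the groups correlated at r = 0.251 across genes. Median centring gave a median difference of 0.19 over all genes, against -0.05 as reported, and of 2.22 over the members, against 1.97. The difference of BomS2 was -0.69 with the floor at the 30th percentile, against -1.11 as reported. The 8 members whose groups did not overlap became 7 after quantile normalization and 7 with the floor at the 30th percentile. The members' median was 1.16 without Cha-negative b, 1.45 without Gad1-negative a and 2.51 without Cha-negative a.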
